A study of Mus musculus with 8 samples.

Results

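The miRNAs described are miR-31, miR-203, miR-205, miR-375 and the miR-183 cluster (miR-96, miR-182 and miR-183), which are known from epithelial cells and lie outside the miR-200 family. They were picked by their exact array names (mmu-miR-31, mmu-miR-203, mmu-miR-205, mmu-miR-375, mmu-miR-96, mmu-miR-182 and mmu-miR-183) and are 7 of the 611 mouse miRNAs on the array. All 7 were found, 5 of them were detected on all 8 arrays, and 6 of them were detected on at least 4 arrays and entered the test. miR-205 was the member that was not tested. Their signals were read in the lungs of female C57BL/6 mice that were pregnant during the exposure. The Printex 90 mice (4 arrays) were given carbon black nanoparticles suspended in nanopure water through the trachea in 4 instillations of 0.067 mg, or 0.268 mg in all. The instillations fell on gestation days 7, 10, 15 and 18. The vehicle control mice (4 arrays), also pregnant, were given nanopure water, and lungs of both groups were collected at weaning, 26 to 27 days after exposure. Neither group carried a modified allele by the labels, and their age was not known here. Whether the arrays came from different mice is not stated in the labels, so the p-values cover the spread between these 8 samples, which may be technical.

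A mature miRNA guides a silencing complex to messenger RNAs that pair with its seed, the bases near its 5′ end. miR-31 is known from skin, hair follicles and gut epithelium, where it is raised during wound repair. miR-203 is abundant in the differentiating layers of the epidermis and represses p63, a factor that keeps basal cells immature. miR-205 marks the basal cells of stratified epithelia and represses ZEB1 and ZEB2 together with the miR-200 family. miR-375 is best known from pancreatic islets, where it restrains insulin secretion, and is also found in neuroendocrine cells, a rare cell type of the airway lining. miR-96, miR-182 and miR-183 are made from neighbouring hairpins and are known from sensory cells such as photoreceptors and inner ear hair cells.

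The mature sequences are shown because the array tells these miRNAs apart by sequence alone, and the seeds of miR-96, miR-182 and miR-183 are close to each other. RefSeq sequences on the mouse build GRCm38.p6 were matched by name for 6 of the 7 members, with miR-375-3p the other. Each is written 5′ to 3′ with the seed, bases 2 to 8, in capitals.
miR-31-5p, chr4:88910614-88910635, minus strand: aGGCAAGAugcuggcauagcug
miR-203-3p, chr12:112130927-112130948, plus strand: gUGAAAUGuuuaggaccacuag
miR-205-5p, chr1:193507503-193507524, minus strand: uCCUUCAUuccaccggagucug
miR-96-5p, chr6:30169506-30169528, minus strand: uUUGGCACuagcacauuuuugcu
miR-182-5p, chr6:30165962-30165986, minus strand: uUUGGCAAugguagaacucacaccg
miR-183-5p, chr6:30169711-30169732, minus strand: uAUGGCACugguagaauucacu

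The miR-31, miR-203, miR-205, miR-182 and miR-183 seeds were each found in no other mouse mature miRNA of the RefSeq table. The miR-96 seed was found in miR-1271-5p as well. Positions are counted from 1 at the 5′ end. The seed of miR-96 differed from that of miR-182 by C8A and from that of miR-183 by U2A, so that 6 of 7 seed positions were shared in each of these pairs. The seeds of miR-182 and miR-183 differed by both U2A and A8C and shared 5 of 7 positions. Compared from the 5′ end up to the shorter sequence's length, miR-182 and miR-183 were the most alike pair of the 6 sequences. They had the same base at 18 of 22 positions (81.8%). By the same count miR-96 had the same base as miR-182 at 12 of 23 and as miR-183 at 13 of 22. Probe sequences were not used here, and cross-hybridisation between these 3 miRNAs was not tested.

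The hairpins sit in few gene spans of the same annotation. The 3 cluster hairpins lie within the long noncoding RNA gene Mirc35hg on chromosome 6, between the coding genes Nrf1 and Ube2h. Only 116 bases separate Mir96 from Mir183, and 3453 bases separate Mir182 from Mir96. Mir31 lies within the noncoding gene Gm49890, between Ifne and Mtap on chromosome 4, and Mir205 lies within its host gene Mir205hg on chromosome 1. Mir203 (chr12:112130880-112130955) and Mir375 (chr1:74900658-74900721) lie within no other gene span. The strand of these host spans was not used here.

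Signals are given as relative signal, the background-subtracted spot intensity of a miRNA summed over its probes and divided by the 75th percentile of its own array. That percentile was 580.8 to 720.6 intensity units on the Printex 90 arrays and 628.4 to 804.7 on the vehicle control arrays, and 248 to 283 and 251 to 283 mouse miRNAs were detected. Log2 differences are Printex 90 minus vehicle control after values under 0.0388 were set to that floor, so changes near it are understated. All 8 arrays shared 1 slide and 1 scan, but the Printex 90 arrays lay in slide row 2 and the controls in slide row 1, so slide row and exposure cannot be told apart. By limma with Benjamini-Hochberg adjustment, 0 of 268 tested miRNAs passed an adjusted p of 0.05 (0%), the lowest being 0.203, while 15 (5.6%) were under 0.05 before adjustment. Without Printex 90 replicate 3, 3 passed, and none of them was a member. The lung samples carried epithelial signals: all 5 members of the miR-200 family were detected on every array. The endothelial miR-126-3p was detected on every array, at 33.9 to 41.7 on Printex 90 arrays and 36.7 to 42.3 on vehicle control arrays, and the neuronal miR-124 and miR-9 were detected on no array. Markers of other tissues were present and uneven. The liver miR-122 was detected on 3 Printex 90 and 4 vehicle control arrays, with a 25.6-fold range over all arrays. The low end of that range was an undetected value under the floor, 0.0172 on Printex 90 replicate 3. Vehicle control replicate 4 was under the floor as well, at 0.0269. The muscle miR-1 was detected on every array, with an 11.9-fold range.

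None of the 6 tested members passed the adjusted p of 0.05, beside 0% of all tested miRNAs. One member, miR-31, had an unadjusted p under 0.05, so that 1 of 6 members stood beside 5.6% of all tested miRNAs. For higher signal after Printex 90 alone, that is 1 of 6 beside 2.99%, and for lower signal 0 of 6 beside 2.61%. No member had groups without overlap, beside 1.49% of all tested miRNAs (1.12% higher and 0.373% lower). Of the tested members 3 had a log2 difference above 0, 2 below it, and miR-182 was at the floor on every array, with a median of 0.01. Over all 268 tested miRNAs 85 were above 0 and 176 below it, with a median of -0.05.

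**Figure D1:**
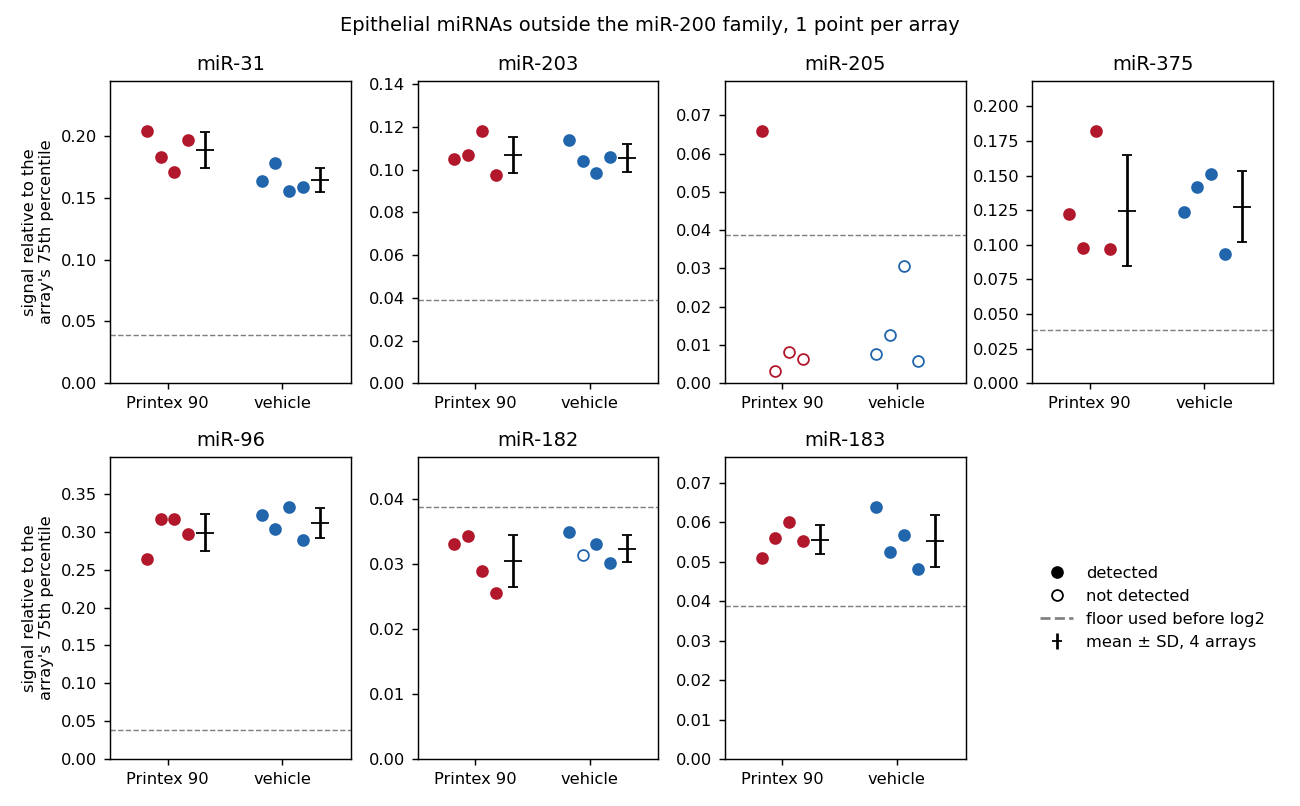
Relative signal (spot intensity over the array's 75th percentile) of the 7 members, 1 point per array, with Printex 90 left and vehicle control right in each panel. Filled points were detected, open points were not, the dashed line is the floor of 0.0388, and bars are mean ± SD over 4 arrays (not drawn for miR-205). The groups overlap in every panel, and miR-205 has a single detected array.

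miR-31 had the highest log2 difference of the members. It measured 0.204, 0.183, 0.171 and 0.197 on the Printex 90 arrays, against 0.164, 0.178, 0.156 and 0.159 on the vehicle control arrays. Printex 90 replicate 3 was the only Printex 90 array below a control, vehicle control replicate 2, and the other Printex 90 arrays lay above all 4 controls. The means were 0.189 ± 0.0145 on Printex 90 arrays and 0.164 ± 0.00968 on vehicle control arrays (SD, n = 4 each). The log2 difference was 0.20 (SE 0.0668, 95% interval 0.04 to 0.36), a fold of 1.15 with an interval of 1.03 to 1.28. limma gave an unadjusted p of 0.0197 and an adjusted p of 0.706, so miR-31 did not pass. The two-sided exact permutation test over the 70 assignments of arrays gave p = 0.0571. Among the tested miRNAs it ranked 7 by unadjusted p and 9 by log2 difference.

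Both miR-31 probes gave the same picture. Their log2 differences were 0.20 and 0.21, and over the 8 arrays their signals ran together (Pearson r = 0.985). The standard error from the replicate spots of a probe was small, with a median of 1.36% and 2.01% of the array mean for the 2 probes. Between arrays the same probes varied by 9.44% and 10.8% (coefficient of variation). The direction was the same under all 24 alternatives, with a log2 difference of 0.13 to 0.26 and limma adjusted p-values of 0.204 to 0.914. Part of these could not turn it. As miR-31 lay above the floor, other floors, other detection filters and the replicate block left the difference at 0.20. So did limma's trend and robust settings, which change the variance and not the difference. Others left out 1 array each and kept the processing.

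Set against the miR-200 family on the same array, miR-31 gave a difference that needs no scaling between arrays. The log2 ratio of miR-31 to the family was -2.96, -3.06, -3.36 and -2.91 on the Printex 90 arrays, against -3.27, -3.09, -3.30 and -3.16 on the vehicle control arrays. The lowest and the highest ratio of all were both on Printex 90 arrays. The means were -3.07 ± 0.20 and -3.20 ± 0.10 (SD, n = 4 each), and the difference of 0.13 was smaller than the spread of the Printex 90 arrays. The family itself had log2 differences of 0.04 to 0.10, all 5 above 0, with limma adjusted p-values of 0.706 to 0.797. In whole lung, a change in the number of cells of a type cannot be told from a change in RNA per cell.

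**Figure D2:**
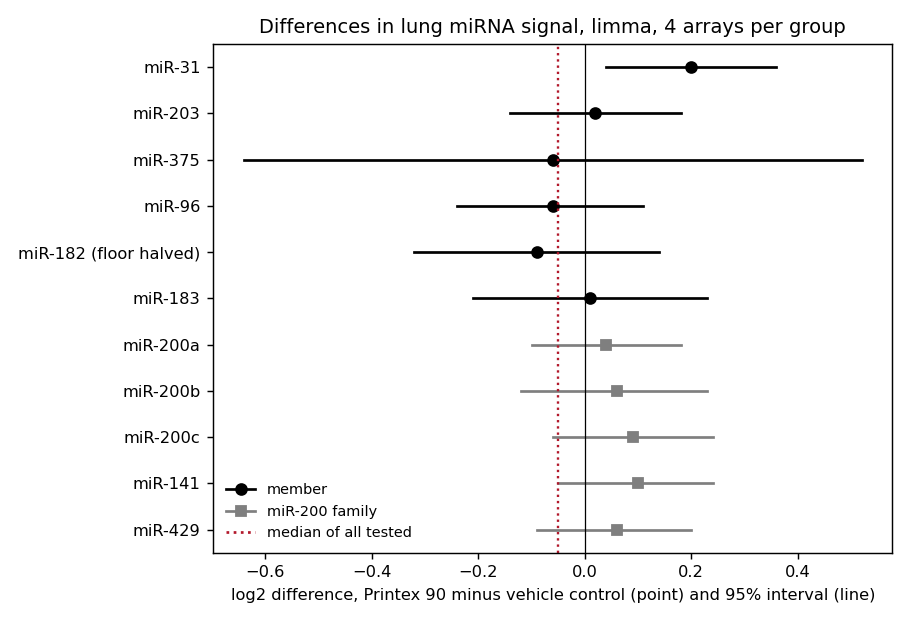
Log2 difference in relative signal, Printex 90 minus vehicle control, with its 95% interval from limma for the 6 tested members (black) and the 5 miR-200 family members (grey), 4 arrays per group. miR-31 at 0.20 is the member whose interval (0.04 to 0.36) lies above 0, while miR-375 has the widest interval (-0.64 to 0.52). miR-182 is drawn with the floor halved, and the dotted line is the median of all tested miRNAs, -0.05.

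The miRNAs whose array profile was most like that of miR-31 were miR-155, known from activated leukocytes, miR-146b, a brake on innate immune signalling, and miR-21, raised in many injured tissues. They were taken as the 3 with the highest Pearson r of log2 relative signal among 239 other miRNAs detected on all 8 arrays. The correlations with miR-31 were 0.963 for miR-155, 0.916 for miR-146b and 0.894 for miR-21 (Spearman's rho 0.95, 0.93 and 0.93). They describe 8 arrays that share a slide, a scan and a scaling, and carry no test. With group means removed, so that only differences within groups count, r was 0.93, 0.78 and 0.75. The same 3 stood first after quantile normalization, at 0.86, 0.777 and 0.768. In unscaled intensity r was 0.84, 0.75 and 0.84.

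miR-155 measured 0.0948, 0.0782, 0.0547 and 0.0765 on the Printex 90 arrays, against 0.0517, 0.068, 0.0475 and 0.0458 on the vehicle control arrays. Both miR-31 and miR-155 had their highest value on Printex 90 replicate 1, their lowest Printex 90 value on replicate 3 and their highest control value on replicate 2. The leukocyte markers beside them (miR-223, miR-150, miR-142-3p and miR-142-5p) had 1 of 4 members above 0 and 3 below it. Their summed relative signal was 7.02 to 8.45 on Printex 90 arrays and 6.68 to 8.61 on vehicle control arrays, with no marker at 0. The part of leukocyte RNA in the miR-31 values was not tested.

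**Figure D3:**
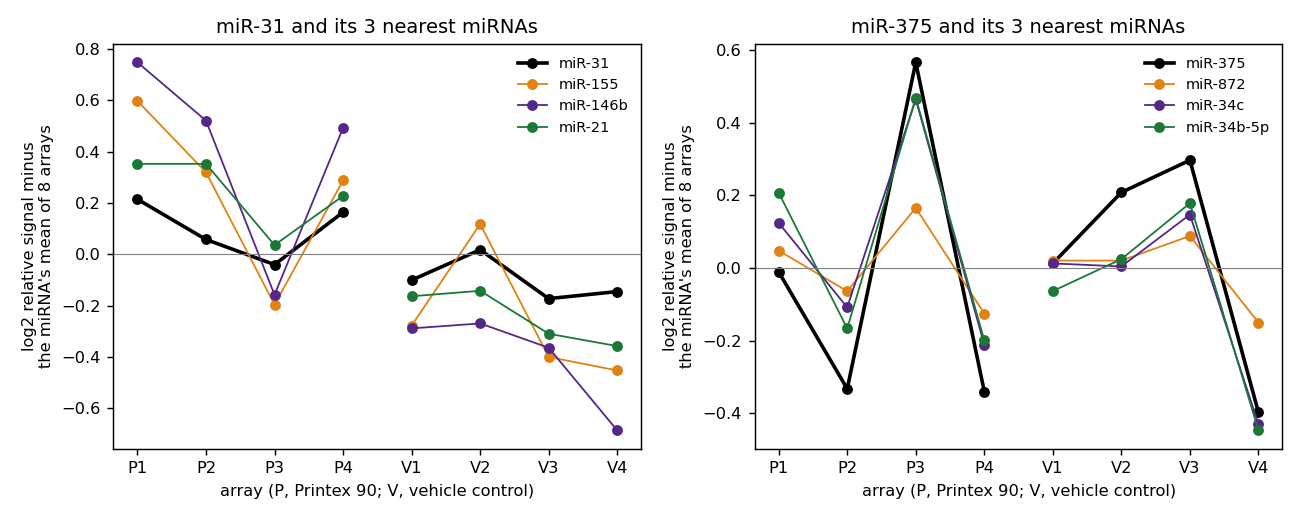
Log2 relative signal of miR-31 (left) and miR-375 (right) with their 3 nearest miRNAs on the 8 arrays, each minus its own mean over the arrays. P1 to P4 are Printex 90 and V1 to V4 vehicle control, and lines join the points of 1 miRNA only to guide the eye. miR-31 and its neighbours dip at P3 among the Printex 90 arrays, while miR-375 and its neighbours peak there and are lowest at V4.

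miR-203, the epidermal differentiation miRNA, was detected on every array, with overlapping groups. It measured 0.105, 0.107, 0.118 and 0.0978 on the Printex 90 arrays, against 0.114, 0.104, 0.0984 and 0.106 on the vehicle control arrays. Both the lowest and the highest value were on Printex 90 arrays, and the controls lay between them. The means were 0.107 ± 0.00818 and 0.106 ± 0.0064 (SD, n = 4 each). The log2 difference was 0.02 (SE 0.067, limma adjusted p = 0.918), and its interval reached from a fold of 0.907 to one of 1.13. The sign of so small a difference turned without scaling between arrays (-0.05), with array weights, and without Printex 90 replicate 3 (-0.03) or vehicle control replicate 3 (-0.02). The highest and the lowest array differed 1.2-fold, against a median of 1.31-fold over all miRNAs detected on every array.

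miR-205, the basal cell miRNA, was below detection on most arrays. It was detected on Printex 90 replicate 1 alone, where 15 of 20 kept spots were well above background. Its relative signal was 0.0658, 0.00322, 0.00814 and 0.00627 on the Printex 90 arrays, against 0.00771, 0.0126, 0.0305 and 0.00575 on the vehicle control arrays. Only vehicle control replicate 3 came near the detected array, with 2 of 20 spots well above background, and the other 6 arrays lay between 0.00322 and 0.0126 with no such spot. With 1 detected array miR-205 was not tested with limma, and no fold is given because the bound on it was under 1. The log2 difference was 0.19 with the floor (exact permutation p = 1), 0.00 without Printex 90 replicate 1, and -0.16 when the undetected values were taken as measured (exact permutation p = 0.914), so miR-205 has no settled direction.

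On the 1 array with detected miR-205, some of the marker miRNAs of striated muscle and of multiciliated cells were at their highest, and others were not. The 2 given array by array were chosen after their values were seen. miR-1, the most abundant miRNA of heart and skeletal muscle, measured 1.55, 0.131, 0.208 and 0.18 on the Printex 90 arrays, against 0.482, 0.941, 0.832 and 0.171 on the vehicle control arrays. Its level on Printex 90 replicate 1 was the highest of all 8. miR-449a, a miRNA of multiciliated airway cells, measured 0.445, 0.205, 0.265 and 0.235 on the Printex 90 arrays, against 0.185, 0.256, 0.32 and 0.149 on the vehicle control arrays. It too was highest on Printex 90 replicate 1. miR-133a and miR-133b were also highest there, at 0.549 and 0.896. The multiciliated markers miR-34b-5p and miR-34c were instead highest on Printex 90 replicate 3 (4.83 and 2.38), where miR-205 was not detected, and the muscle marker miR-206 was highest on vehicle control replicate 2 (0.0648).

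The striated muscle list (miR-1, miR-133a, miR-133b and miR-206) summed to 0.313 to 3.05 on Printex 90 arrays and 0.38 to 1.91 on vehicle control arrays. All 4 markers were detected on every array except miR-206 on 1 Printex 90 array. The multiciliated list summed to 4.76 to 7.47 and 3.99 to 6.18, with miR-449b detected on no array. The part of muscle or multiciliated cell RNA in the miR-205 values was not tested.

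**Figure D4:**
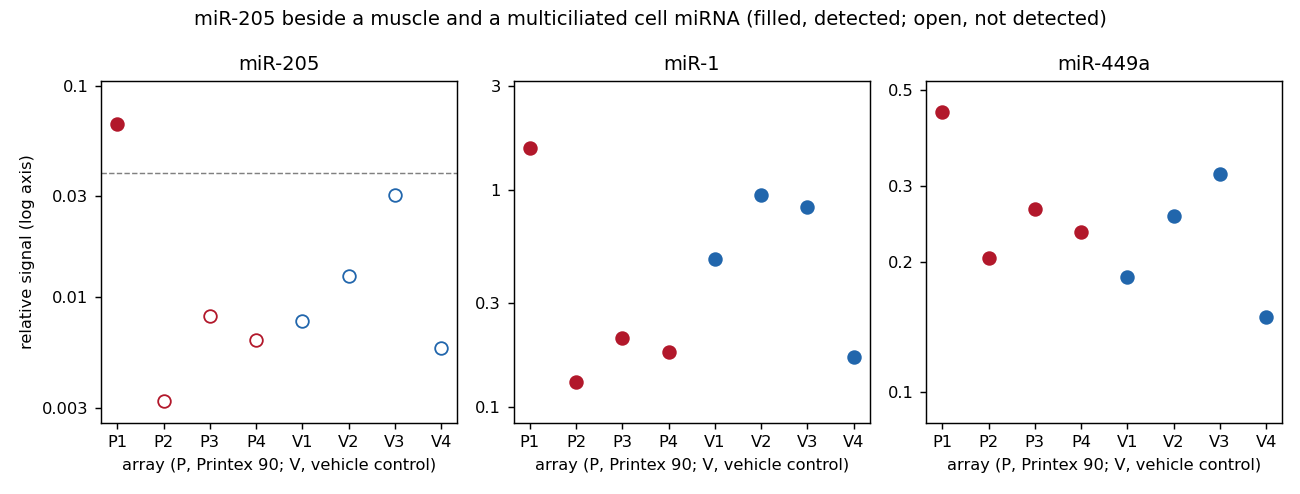
Relative signal (log axes with their own ranges) of miR-205, of the muscle miRNA miR-1 and of the multiciliated cell miRNA miR-449a on each array, Printex 90 (P1 to P4) left of vehicle control (V1 to V4). Open points were not detected and the dashed line is the floor of 0.0388. Printex 90 replicate 1 is the highest array in all 3 panels (0.0658, 1.55 and 0.445), and the 2 markers drawn were chosen after their values were seen.

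miR-375, the islet and neuroendocrine miRNA, varied most between arrays among the members detected on all 8. It measured 0.122, 0.0976, 0.182 and 0.0971 on the Printex 90 arrays, against 0.124, 0.142, 0.151 and 0.0933 on the vehicle control arrays. The values of both groups were spread over the same range, with the highest on Printex 90 replicate 3 and the lowest on vehicle control replicate 4. These 2 arrays differed 1.96-fold. The means were 0.125 ± 0.0401 and 0.128 ± 0.0256 (SD, n = 4 each). The log2 SD within groups was 0.427 on Printex 90 arrays and 0.31 on vehicle control arrays, where the median over all tested miRNAs was 0.123.

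The log2 difference of miR-375 was -0.06 (SE 0.245, limma adjusted p = 0.918), with an interval of 0.642 to 1.43 as a fold. A change of that size in either direction could not be told from the spread. Single arrays moved it widely: it was -0.26 (adjusted p = 0.721) without Printex 90 replicate 3, -0.20 (adjusted p = 0.766) without vehicle control replicate 4, and 0.04 without Printex 90 replicate 2 or replicate 4. Without vehicle control replicate 3 it was 0.03. The 2 probes gave -0.07 and -0.05 and ran together over the arrays (r = 0.987), and the median standard error from replicate spots was 2.54% and 1.6% of the array mean. The spread between arrays was 26.4% and 23.9%.

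The profile of miR-375 was shared with miR-872 (r = 0.95), miR-34c (0.908) and miR-34b-5p (0.903), the last 2 of which are made from 1 transcript and are abundant in multiciliated cells. With group means removed, r was 0.96, 0.98 and 0.98, and with Printex 90 replicate 3 left out it was 0.915, 0.831 and 0.826. After quantile normalization r was 0.816, 0.744 and 0.79, at ranks 1, 7 and 3, so these were no longer the 3 nearest. miR-34c measured 1.88, 1.6, 2.38 and 1.49 on the Printex 90 arrays, against 1.74, 1.73, 1.91 and 1.28 on the vehicle control arrays. As for miR-375, Printex 90 replicate 3 was the highest array of all and vehicle control replicate 4 the lowest. In unscaled intensity r was 0.75 for both miR-34c and miR-34b-5p but -0.16 for miR-872, whose relative signal lay between 0.0924 and 0.115 on all arrays.

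The brightness of the arrays ran opposite to miR-375. The 75th percentile was lowest on Printex 90 replicate 3 (580.8 intensity units) and highest on vehicle control replicate 4 (804.7), the reverse of the order of miR-375. Over the 8 arrays, the correlation between this percentile and miR-375 was -0.89 for relative signal and -0.71 for unscaled intensity (log2 values). For miR-34c it was -0.94 and -0.74. Relative signal is divided by this same percentile, so a negative correlation with it is partly built in. The other members detected on all arrays had correlations of -0.39 to -0.15 in relative signal and 0.63 to 0.82 in unscaled intensity. In unscaled intensity miR-375 was thus the one of them that was dimmer on brighter arrays. The part of array brightness in the miR-375 values was not tested.

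In the miR-183 cluster, miR-96 and miR-183 were detected on every array and miR-182 on 7, and none passed the test. miR-96 measured 0.265, 0.317, 0.317 and 0.298 on the Printex 90 arrays, against 0.323, 0.304, 0.333 and 0.289 on the vehicle control arrays. Printex 90 replicate 1 was the lowest array, and the other Printex 90 arrays lay within the range of the controls. The means were 0.299 ± 0.0246 and 0.312 ± 0.0196 (SD, n = 4 each). The log2 difference was -0.06 (SE 0.0725, limma adjusted p = 0.767, fold interval 0.849 to 1.08), and -0.01 without Printex 90 replicate 1. Both probes gave nearly the same value, -0.07 and -0.06. Relative to the miR-200 family on the same array the log2 ratio of miR-96 was -2.41 ± 0.15 on Printex 90 arrays and -2.28 ± 0.05 on vehicle control arrays, with overlapping groups. The sign turned after quantile normalization (0.01), with another background correction (0.02) and in the authors' deposited table (0.06).

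miR-183 measured 0.0511, 0.056, 0.0602 and 0.0552 on the Printex 90 arrays, against 0.0639, 0.0524, 0.0567 and 0.0483 on the vehicle control arrays. The highest and the lowest value were both on control arrays. The means were 0.0556 ± 0.00373 and 0.0553 ± 0.00668 (SD, n = 4 each), with a log2 difference of 0.01 (SE 0.093, limma adjusted p = 0.952, fold interval 0.866 to 1.17). The sign turned without scaling between arrays (-0.06) and with the scanner software's total gene signal (-0.14). It also turned without Printex 90 replicate 3 (-0.03), vehicle control replicate 2 (-0.01) or vehicle control replicate 4 (-0.05). One of its probes was well above background on all arrays and gave 0.03, and the other was so on 3 arrays.

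miR-182 lay near the limit of detection. It measured 0.0331, 0.0343, 0.029 and 0.0256 on the Printex 90 arrays, against 0.0349, 0.0314, 0.0331 and 0.0302 on the vehicle control arrays. All 8 values were under the floor, so they were tied in the fit. It was detected on 4 of 4 Printex 90 arrays and 3 of 4 vehicle control arrays, through 1 of its 2 probes, while the other probe was well above background on 0 arrays. With the floor halved the log2 difference was -0.09 (95% interval -0.32 to 0.14, limma adjusted p = 0.798), and the exact permutation test gave p = 0.4.

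Of the cluster, miR-96 and miR-183 had alike profiles. Over the 8 arrays their log2 relative signals had r = 0.71 and rho = 0.88, and r = 0.77 with group means removed. miR-182 was less alike, at r = 0.20 with miR-96 and 0.19 with miR-183. Its own 2 probes had r = 0.579 between them, against 0.989 for the 2 probes of miR-96 and 0.768 for those of miR-183. In unscaled intensity the 3 pairs of miRNAs had r of 0.84 (miR-96 and miR-183), 0.64 (miR-96 and miR-182) and 0.56 (miR-182 and miR-183). Among all pairs of members the lowest r of relative signal was that of miR-31 and miR-96, at -0.64, a pair with r = 0.19 in unscaled intensity. In unscaled intensity the lowest was that of miR-31 and miR-375, at -0.97, a pair with r = -0.26 in relative signal.

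**Figure D5:**
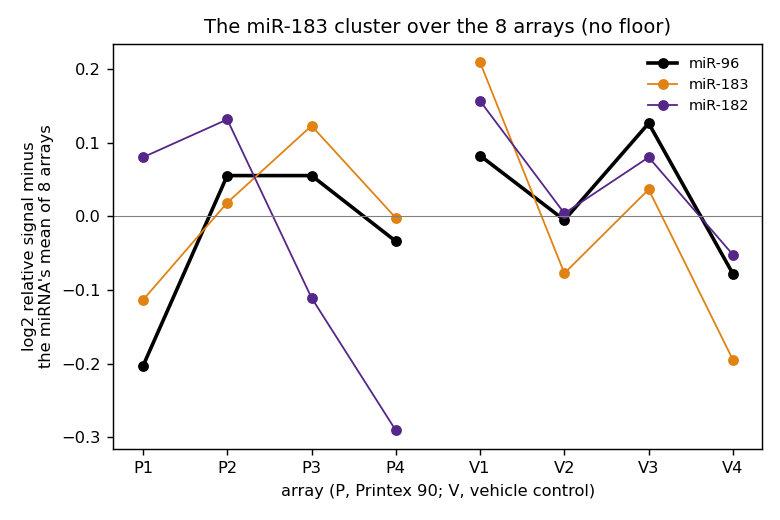
Log2 relative signal of miR-96, miR-183 and miR-182 on each array without the floor, each minus its own mean over the 8 arrays, Printex 90 (P1 to P4) left of vehicle control (V1 to V4). Lines join the points of 1 miRNA only to guide the eye. miR-96 and miR-183 are both low at P1 and V4 and have r = 0.71, while miR-182 parts from them at P1, P3 and P4.

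The opposite strands of 3 member hairpins were on the array too, and all were below detection. A hairpin gives a duplex of which 1 strand is usually kept and the other, marked with an asterisk in the array's naming, mostly lost. They are shown for comparison with the kept strands above.
miR-31-3p (miR-31*), chr4:88910577-88910599, minus strand: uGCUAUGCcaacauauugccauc
miR-203-5p (miR-203*), chr12:112130889-112130910, plus strand: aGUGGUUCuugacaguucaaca
miR-183-3p (miR-183*), chr6:30169672-30169693, minus strand: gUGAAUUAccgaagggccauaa

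miR-31*, miR-203* and miR-183* were detected on 0 of 8 arrays each. The signal of miR-31* was 0.0171 to 0.0224 on Printex 90 arrays and 0.0146 to 0.0174 on vehicle control arrays, under the floor on every array. The mean relative signal was 0.000388 in Printex 90 lungs and -0.00279 in vehicle control lungs for miR-203*. For miR-183* it was -0.0162 and -0.0157, below 0 after background subtraction in both groups. No difference is given for any of the 3.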

How the data were processed

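Lung RNA of 8 samples (4 Printex 90, 4 vehicle control) was hybridised to one-colour Cy3 Agilent miRNA arrays, per the labels' protocols. Per the file headers, Agilent Feature Extraction 10.7.3.1 (grid 021828) made the deposited intensity of each spot, with background subtracted per array, and the spot flags. A table deposited by the authors holds values on a log2 scale, made by steps not given in the sources used here. These values correlated at 0.9991 to 0.9998 with log2 median spot signals, column medians were 5.41 to 5.43, and centring stays unknown.

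Outlier-flagged spots (2.25% to 2.76%) were dropped, and saturated spots numbered 0. Spots were averaged per probe and probes summed per miRNA. Detection on an array needed at least 50% of the kept spots of a probe to be well above background. Arrays were divided by their 75th percentile over 240 miRNAs detected on all 8 arrays, floored at 0.0388 (the 5th percentile of detected signals), and log2 was taken. Mouse miRNAs detected on 4 or more arrays (268) were fitted with limma 3.58.1 (R 4.3.3, lmFit and eBayes, two-sided), which was tested on simulated data. Intervals are 95% and cover the spread between arrays. Precision is limited by the number of arrays. The alternative background correction (normexp, offset 50) was planned on mean spot signals and run on median ones.

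Groups came from the sample labels. Members, lists and tests were chosen with earlier results of these data known. Named miRNAs were the members, their opposite strands, the miR-200 family, the cell type markers and the 3 nearest profiles of each member detected on all arrays. miRNA names are those of the array design. Sequences and coordinates are RefSeq's (GRCm38.p6), and gene positions in the files were not used.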

Additional observations from a re-analysis of the deposited data

Results flagged for a closer look

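In each group of 4 arrays, the highest or lowest log2 relative signal was set against the next one. In 5 of 81 groups with a spread, the gap over the group's range was above Dixon's limit at the 95% level, and chance alone at about 1 in 20 gives 4.05. miR-205 on Printex 90 replicate 1 stood at -3.93 with the other 3 Printex 90 arrays at the floor of -4.69, so the floor makes the gap the whole range. Without the floor the gap over the range was 0.692, under the limit. miR-133a, a muscle miRNA, stood at -0.87 on the same array with the next at -3.78. miR-122, a liver miRNA, was at the floor of -4.69 on Printex 90 replicate 3 with the next array at -1.61. The endothelial miR-126-3p was low on vehicle control replicate 2, at 5.20 with the next at 5.38. miR-19a, the nearest profile to miR-183, was high on vehicle control replicate 1, at -1.63 with the next at -1.80.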

How the results depend on the processing

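The count of miRNAs past an adjusted p of 0.05 was 0 under 23 of 24 alternatives and 3 without Printex 90 replicate 3 (miR-135b, miR-146b and miR-21, none a member). Leaving out 1 array at a time thus gave 0 to 3. The log2 difference of miR-31 kept its direction under all 24 and never passed, and leaving out 1 array gave 0.16 to 0.25. Other floors, other detection filters, the replicate block and limma's trend and robust settings could not turn its direction. miR-203 turned to -0.05 without scaling and -0.00439 with array weights, and leaving out 1 array gave -0.03 to 0.06. miR-375 turned to 0.06 with normexp and 0.01 in the authors' deposited table, and leaving out 1 array gave -0.26 to 0.04. miR-96 turned to 0.01 with quantile normalization, 0.02 with normexp and 0.06 in the authors' deposited table. miR-183 turned to -0.06 without scaling and -0.14 with total gene signal, and leaving out 1 array gave -0.05 to 0.08. The cause was not tested. With at least 1 spot required miR-205 was detected on 2 arrays, and with all spots of a probe required miR-182 was detected on 3. The median of all tested miRNAs ran from -0.12 without scaling to 0.04 with normexp. With the replicate number as a block, 0 miRNAs passed and miR-31 had an adjusted p of 0.744. Deviations of same-numbered arrays correlated at -0.129, -0.375, -0.47 and 0.44. Arrays with different numbers ran from -0.827 to 0.702. Such correlations cannot show whether the samples were paired by design. Arrays were left out after scaling, with the tested set kept. miR-205, not tested, was -0.16 without a floor and 0.00 to 0.34 under its other alternatives. The no-floor values of miR-182 and miR-205 and the likeness with arrays left out or after quantile normalization were chosen after seeing the data. Signal over background limits miR-182 and miR-205.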

Other observations

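The profiles nearest to the remaining members were compared before and after quantile normalization. miR-96 ran with miR-484 at r = 0.975, which was 0.912 and rank 4 after quantile normalization. miR-484 measured 0.0973, 0.109, 0.109 and 0.102 on the Printex 90 arrays, against 0.111, 0.106, 0.112 and 0.104 on the vehicle control arrays, and both miRNAs were lowest among Printex 90 arrays on replicate 1. The next profiles, miR-30c-2* (0.899) and miR-27a (0.877), stood at ranks 16 and 95. miR-203 ran with miR-199a-3p (0.889), miR-99a (0.867) and miR-98 (0.859), which stood at ranks 97, 77 and 8 after quantile normalization. miR-183 ran with miR-19a (0.843), miR-210 (0.827) and miR-345-5p (0.806), at ranks 18, 36 and 5. Each r is over the same 8 arrays and carries no test.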
